A study of Mus musculus with 8 samples.

Results

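The chaperones of the heat shock system and the co-chaperone Bag3 were followed in total splenocytes of mice that received all-trans retinoic acid (tRA), an active form of vitamin A, and of mice that received vehicle. The group comprises 10 of the 51826 genes counted, namely Hspa1a, Hspa1b, Hspa8, Dnajb1, Hsph1, Bag3, Hsp90aa1, Hsp90ab1, Hspe1 and Hsf1. These genes were selected by name with the difference between tRA and vehicle in the same mice already known, so their differences are given as a description and support nothing beyond it. Bag3 also stands in the study's own list of changed genes, which was drawn from these mice and is not independent evidence. All 10 genes passed the filter on low counts.

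The study asked about oral tRA given before lupus is induced with pristane. It sought candidate genes induced by tRA that go with activation of conventional dendritic cells. Total splenocytes of 8 female Balb/c mice, 4 per group, were sequenced at 3 months of age, after lysis of red cells and without pristane. The tRA mice were dosed by mouth every day from weaning with 1 mg/kg body weight, and the vehicle mice received canola oil. The labels carry the text on tRA dosing for all 8 samples, and the groups used here follow the sample titles. Counts on genes summed to 30919272 to 37539631 for the vehicle mice (median 33879268) and to 31810417 to 35165876 for the tRA mice (median 32899174.5). Levels are given as CPM, counts scaled to a library of common size by TMM, and each log2 fold change sets tRA against vehicle in the edgeR fit.

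Heat shock chaperones bind unfolded protein chains and keep them from aggregating. HSP70 proteins hold and release their clients in a cycle driven by ATP, in which J-domain proteins such as DNAJB1 start ATP hydrolysis and nucleotide exchange factors such as HSPH1 and BAG3 release the client, while HSP90 proteins mature kinases and steroid receptors later in folding. HSF1, which chaperones hold inactive in unstressed cells, drives the inducible genes of the system from heat shock elements in their promoters, in lymphocytes and phagocytes of the spleen as in most cell types.

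The tRA mice had lower levels of 9 of the 10 genes, and Hsf1 was the exception. The log2 fold changes of these 9 genes ran from -1.35 for Hspa1a to -0.34 for Hspa8, and the median over all 10 genes was -0.69, where the median over all 16484 genes tested was 0.0014. The inducible HSP70 genes Hspa1a and Hspa1b and the partners Dnajb1, Hsph1 and Bag3 had the largest differences, and the abundant chaperones Hspa8, Hsp90aa1 and Hsp90ab1 had smaller ones. In bulk splenocytes, fewer cells that express a gene and less of its RNA per cell cannot be told apart.

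By the quasi-likelihood test of edgeR, adjusted by Benjamini-Hochberg, 0 of the 10 genes and 0 of all genes tested (0%) had an FDR under 0.1, and the FDRs of the 10 genes ran from 0.757 to 0.956. At an unadjusted p under 0.05 there were 8 of the 10 genes, all lower with tRA, against 1070 of all genes tested (6.49%), of which 585 (3.55%) were lower and 485 (2.94%) higher. DESeq2 gave Bag3 alone among the 10 genes an FDR under 0.1, against 27 of 13625 genes (0.198%), limma-voom gave 0 of the 10, and the FDR of Bag3 ran from 0.0792 with DESeq2 to 0.999 over all alternatives. A negative log2 fold change was seen for 9 of the 10 genes and for 49.7% of all genes tested. The 4 tRA mice all lay below the 4 vehicle mice for 3 of the 10 genes and for 1.63% of all genes tested. Since the genes were chosen on this contrast, nothing is read from these counts. Without vehicle mouse 3, 3 of the 10 genes had an unadjusted p under 0.05, and 5.44% of all genes tested in that setting did. Without the mice numbered 3 of both groups, a setting chosen after seeing the data, there were also 3, with 4.99% of all genes, and the median log2 fold change was -0.34.

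**Figure D1:**
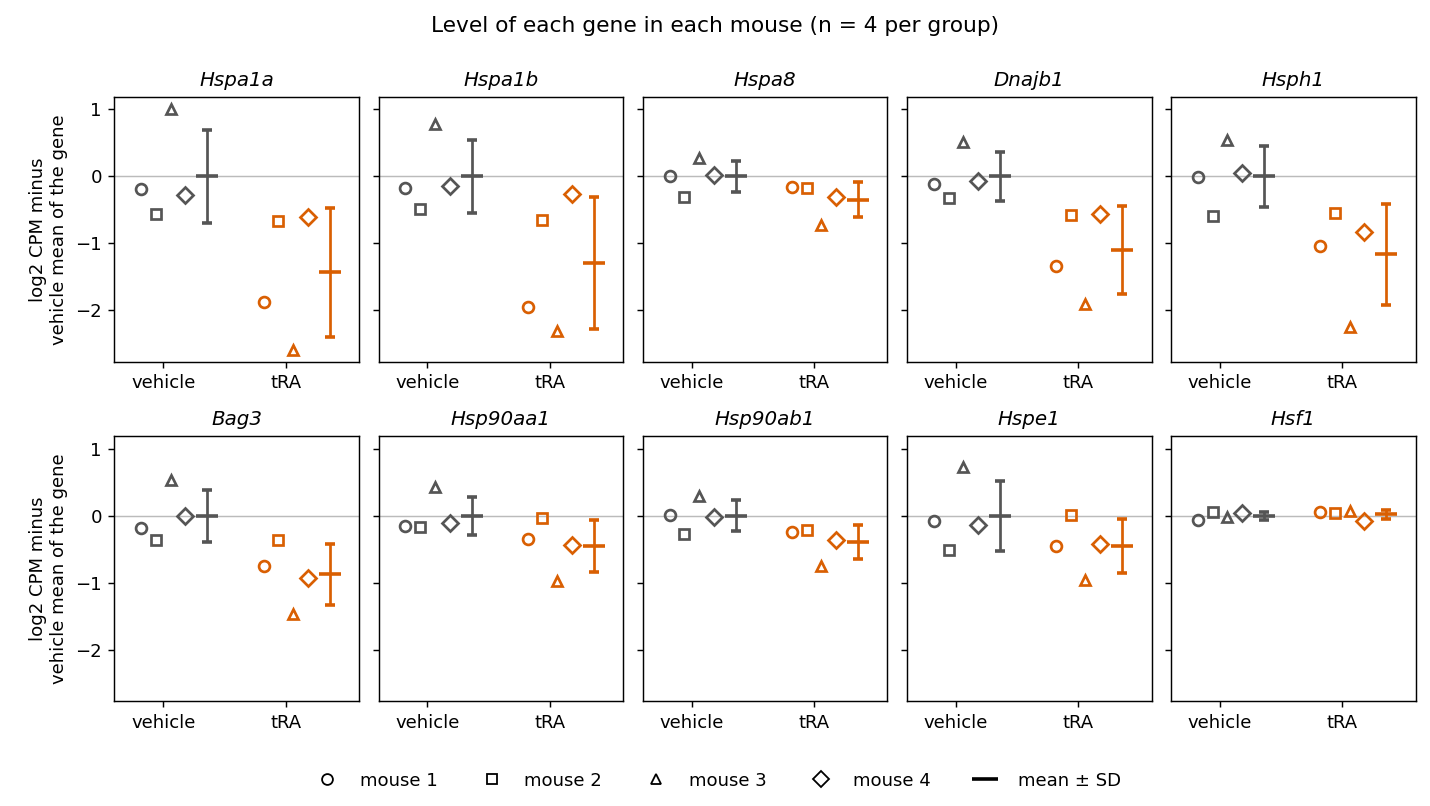
Level of each of the 10 genes in each mouse as log2 CPM minus the mean of the 4 vehicle mice, with symbols for the mice numbered 1 to 4 of each group and bars for the mean and SD (n = 4 per group). Vehicle mouse 3 is the highest and tRA mouse 3 the lowest of the 8 in every panel but that of Hsf1, where all mice lie close to 0.

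Hspa1a (ENSMUSG00000091971) encodes an HSP70 that is strongly induced by heat and other proteotoxic stress, and it lies on chromosome 17 from 34969190 to 34972156 on the minus strand of GRCm38. In vehicle mice 1 to 4, Hspa1a was at 412, 317, 942 and 387 CPM, and in tRA mice 1 to 4 it was at 127, 296, 77.3 and 307 CPM. Vehicle mouse 3 stood far above the other vehicle mice, tRA mice 1 and 3 were far below tRA mice 2 and 4, and the groups did not overlap, although tRA mouse 4 came close to vehicle mouse 2. The mean level was 515 ± 288 CPM with vehicle and 202 ± 117 CPM with tRA (SD, n = 4 each), a log2 fold change of -1.35 (standard error 0.452). The log2 fold change of Hspa1a was -0.89 without vehicle mouse 3 and -0.61 without the mice numbered 3 of both groups.

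Hspa1b (ENSMUSG00000090877) encodes a nearly identical protein and is the neighbor of Hspa1a, 9951 bp away on the same strand, from 34956436 to 34959238 on chromosome 17. Its level was 946, 764, 1842 and 968 CPM in vehicle mice 1 to 4 and 276, 677, 215 and 893 CPM in tRA mice 1 to 4. The same mice were high and low as for Hspa1a, but tRA mouse 4 exceeded vehicle mouse 2, so that the groups overlapped. Means were 1129.9 ± 483 CPM with vehicle and 515 ± 325 CPM with tRA (SD, n = 4 each), a log2 fold change of -1.13 (standard error 0.429), which was -0.54 without the mice numbered 3 of both groups.

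The transcripts of both genes share long stretches, as 47.1% of all runs of 100 bases in Hspa1a and 49.9% of those in Hspa1b also occur in the other gene. How the counting split reads between the copies is not given in the sources used here, and their separate levels are uncertain for this reason. The ratio of Hspa1b to Hspa1a CPM was 2.29, 2.41, 1.96 and 2.498 in vehicle mice 1 to 4 and 2.17, 2.29, 2.78 and 2.91 in tRA mice 1 to 4. It was lowest in vehicle mouse 3, where both genes were highest, and the groups overlapped. With the counts of both genes summed, the level was 1358, 1081, 2784 and 1355 CPM in vehicle mice 1 to 4 and 403, 973, 292 and 1199.9 CPM in tRA mice 1 to 4. The summed level overlapped between the groups through tRA mouse 4, which lay above vehicle mouse 2, and its log2 fold change was -1.20. A gene model on the other strand, Gm20481, overlaps Hspa1a and had 0 counts in the 8 mice, against 96444 counts on Hspa1a, which does not show that it was silent if the counting ignored strand.

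Hspa8 (ENSMUSG00000015656) encodes HSC70, the constitutive cytosolic HSP70, and lies on chromosome 9 from 40800984 to 40810087, where its introns host the small nucleolar RNAs Snord14c, Snord14d and Snord14e. Its level was 2342, 1893, 2809.8 and 2372 CPM in vehicle mice 1 to 4 and 2081, 2065, 1407 and 1880.4 CPM in tRA mice 1 to 4. Vehicle mouse 3 was again the highest and tRA mouse 3 the lowest, but tRA mice 1 and 2 lay above vehicle mouse 2. Means were 2354 ± 375 CPM with vehicle and 1858 ± 314 CPM with tRA (SD, n = 4 each), a log2 fold change of -0.34 (standard error 0.146), which was -0.13 without the mice numbered 3 of both groups.

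Among the partners of HSP70, Dnajb1 (ENSMUSG00000005483, chromosome 8 from 83608193 to 83612653) encodes the J-domain protein HSP40. Vehicle mice 1 to 4 had 709, 611, 1094 and 730.3 CPM of Dnajb1, and tRA mice 1 to 4 had 302, 514, 204 and 521 CPM. All tRA mice lay below all vehicle mice, with tRA mice 1 and 3 well below the other tRA mice. The mean level of Dnajb1 was 786 ± 212 CPM with vehicle and 385 ± 158 CPM with tRA (SD, n = 4 each), a log2 fold change of -1.03 (standard error 0.282). Without the mice numbered 3 of both groups it was -0.62.

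Hsph1 (ENSMUSG00000029657, chromosome 5 from 149614287 to 149636376) encodes HSP110, an HSP70 relative that acts as a nucleotide exchange factor. Its level was 707, 469.7, 1028 and 733 CPM in vehicle mice 1 to 4 and 346, 485, 148 and 398 CPM in tRA mice 1 to 4. The groups overlapped only in that tRA mouse 2 lay above vehicle mouse 2, and tRA mouse 3 was far below every other mouse. Means were 734 ± 229 CPM with vehicle and 344 ± 142 CPM with tRA (SD, n = 4 each), a log2 fold change of -1.09 (standard error 0.320), which was -0.64 without the mice numbered 3 of both groups.

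Bag3 (ENSMUSG00000030847, chromosome 7 from 128523616 to 128546981) encodes a nucleotide exchange factor that ties HSP70 to small heat shock proteins and hands aggregated clients to autophagy. Its level was 29.96, 26.5, 49.96 and 34.3 CPM in vehicle mice 1 to 4 and 20.2, 26.4, 12.1 and 17.7 CPM in tRA mice 1 to 4. The groups did not overlap, but tRA mouse 2 was almost level with vehicle mouse 2. Means were 35.2 ± 10.4 CPM with vehicle and 19.1 ± 5.95 CPM with tRA (SD, n = 4 each), a log2 fold change of -0.88 (standard error 0.239). When single mice were left out, the log2 fold change of Bag3 ran from -1.08 to -0.67, and it was -0.50 without the mice numbered 3 of both groups. The unclassified gene model 2610306O10Rik lies within Bag3 on the same strand and drew 124 counts over the 8 mice, against 7273 for Bag3.

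Of the cytosolic HSP90 proteins, Hsp90aa1 (ENSMUSG00000021270, chromosome 12 from 110690605 to 110702728) encodes the stress-inducible alpha form. Its level was 1079, 1068, 1617 and 1122 CPM in vehicle mice 1 to 4 and 944, 1177, 615 and 885 CPM in tRA mice 1 to 4. Apart from the high vehicle mouse 3, the vehicle mice were close together, and tRA mouse 2 lay above those other vehicle mice. Means were 1221 ± 265 CPM with vehicle and 905 ± 231 CPM with tRA (SD, n = 4 each), a log2 fold change of -0.43 (standard error 0.191). The log2 fold change of Hsp90aa1 was -0.27 without vehicle mouse 3 and -0.12 without the mice numbered 3 of both groups.

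Hsp90ab1 (ENSMUSG00000023944, chromosome 17 from 45567775 to 45573271) encodes the constitutive beta form. Vehicle mice 1 to 4 had 3054, 2509, 3718 and 2986 CPM of Hsp90ab1, and tRA mice 1 to 4 had 2561, 2629, 1801 and 2361 CPM. Vehicle mouse 2 lay within the range of the tRA mice, and the other vehicle mice lay above it. Means were 3067 ± 497 CPM with vehicle and 2338 ± 376 CPM with tRA (SD, n = 4 each), a log2 fold change of -0.39 (standard error 0.144), which was -0.18 without the mice numbered 3 of both groups. The ratio of Hsp90ab1 to Hsp90aa1 CPM ran from 2.30 to 2.83 over the vehicle mice and from 2.23 to 2.93 over the tRA mice, so that the balance of both forms overlapped between the groups.

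Hspe1 (ENSMUSG00000073676, chromosome 1 from 55088132 to 55091307) encodes HSP10, the co-chaperonin of HSP60 in the mitochondrial matrix, and is thus not a cytosolic chaperone. Its level was 109, 80.2, 190.2 and 105 CPM in vehicle mice 1 to 4 and 84.4, 116, 58.7 and 85.6 CPM in tRA mice 1 to 4. The groups overlapped widely, and the high vehicle mouse 3 and the low tRA mouse 3 stood out. Means were 121 ± 47.8 CPM with vehicle and 86.1 ± 23.4 CPM with tRA (SD, n = 4 each), a log2 fold change of -0.49 (standard error 0.256). The log2 fold change of Hspe1 was -0.19 without vehicle mouse 3 and -0.040 without the mice numbered 3 of both groups. Hspe1 overlaps the divergent gene of HSP60, Hspd1, on the other strand, and reads from their shared stretch cannot be told apart if the counting ignored strand. Its 6 named pseudogenes drew 169 counts over the 8 mice, or 0.607% of the count on Hspe1 itself.

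Hsf1 (ENSMUSG00000022556, chromosome 15 from 76477422 to 76501913) encodes the transcription factor of the heat shock response, whose activity is set mainly by its binding partners and modification rather than by its transcript. Its level was 99.5, 108, 102 and 107 CPM in vehicle mice 1 to 4 and 108, 107, 109.8 and 98.5 CPM in tRA mice 1 to 4. No mouse stood apart, the groups overlapped, and tRA mouse 3, the lowest for the 9 other genes, was the highest of the 8 for Hsf1. Means were 104 ± 3.98 CPM with vehicle and 106 ± 5.03 CPM with tRA (SD, n = 4 each), a log2 fold change of 0.02 (standard error 0.0614), and without the mice numbered 3 of both groups the value was -0.0031.

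The same few mice set the range for most of the genes. Vehicle mouse 3 had the highest level of all 8 mice for 9 of the 10 genes, and tRA mouse 3 had the lowest level for the same 9. Within the vehicle group, mouse 2 was the lowest for 9 of the 10 genes. Within the tRA group, the highest level was in mouse 2 for 5 genes and in mouse 4 for 3. The median over the 10 genes of the log2 level relative to the vehicle mean was -0.10, -0.34, 0.53 and -0.05 in vehicle mice 1 to 4 and -0.59, -0.29, -1.21 and -0.43 in tRA mice 1 to 4. By this median, tRA mouse 2 lay above vehicle mouse 2, and the groups overlapped. The 10 genes together took 0.934%, 0.792%, 1.29% and 0.955% of all counts in vehicle mice 1 to 4 and 0.664%, 0.808%, 0.488% and 0.761% in tRA mice 1 to 4. Here too, tRA mouse 2 exceeded vehicle mouse 2.

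The spread between mice of a group was wide for the inducible genes, and as the difference known at selection can depend on this spread, it is given as a description. On the log2 scale, the SD within groups was 0.84 for Hspa1a and 0.80 for Hspa1b, wider than that of 99.7% and 99.6% of all genes tested. Hsph1 had an SD of 0.62, Dnajb1 of 0.53, Hspe1 of 0.46 and Bag3 of 0.43, each wider than at least 94.9% of genes. The SDs of Hsp90aa1 (0.34), Hspa8 (0.25) and Hsp90ab1 (0.24) were smaller, where the median of all genes tested was 0.18. They were wider than those of 88.6%, 72.1% and 69.9% of genes tested, in the same order. Hsf1 was among the steadiest genes, with an SD of 0.063, and 4.80% of genes tested had a smaller one. Hspa1a and Hspa1b, with the widest spread within groups, also had the largest differences between groups.

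**Figure D2:**
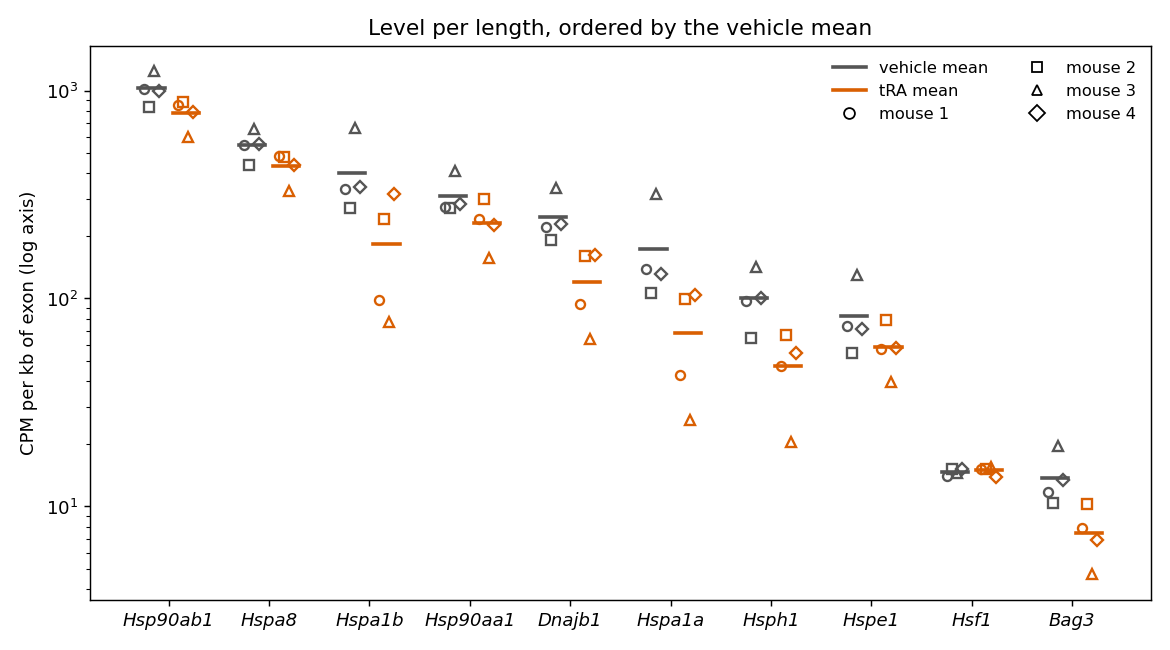
Level of each of the 10 genes in each mouse as CPM per kb of exon on a log axis, with lines for the mean of each group (n = 4), ordered by the vehicle mean. Hsp90ab1 is the highest at a vehicle mean of 1023 CPM per kb, and Bag3 the lowest at 13.7.

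Levels of different genes were compared per length, as CPM per kb of exon in the annotation. The length is that of all annotated exons of a gene merged, from 1474 bp for Hspe1 to 7266 bp for Hsph1. It can exceed the length of the transcripts present, so close places in the order are uncertain. In the vehicle mice the order of mean levels was Hsp90ab1 (1023 ± 166 CPM per kb), Hspa8 (547 ± 87.1), Hspa1b (403 ± 172), Hsp90aa1 (311 ± 67.3), Dnajb1 (245 ± 66.1), Hspa1a (173 ± 97.0), Hsph1 (101 ± 31.5), Hspe1 (82.1 ± 32.4), Hsf1 (14.7 ± 0.561) and Bag3 (13.7 ± 4.04), each with its SD over 4 mice. Of the neighbors in this order, Hsp90ab1 and Hspa8 did not overlap between vehicle mice, nor did Hspe1 and Hsf1, and all other neighbors overlapped. Hspa8 exceeded Hspa1b in 3 of the 4 vehicle mice, with Hspa1b just ahead in mouse 3, and Hsf1 exceeded Bag3 in 3 of 4. In the tRA mice the mean of Hspa1b (184 ± 116 CPM per kb) lay below that of Hsp90aa1 (230.3 ± 58.7), and the mean of Hsph1 (47.4 ± 19.6) lay below that of Hspe1 (58.4 ± 15.9), both pairs in the reverse order of the vehicle mice. As counted, the constitutive chaperones Hsp90ab1 and Hspa8 had the highest means of the 10 in both groups. The places of Hspa1a and Hspa1b in this order are uncertain for the shared sequence. The means of the 2 copies added up to 577 CPM per kb with vehicle, above the 547 of Hspa8, and to 252 with tRA, below the 432 of Hspa8. The vehicle sum lay above Hspa8 through vehicle mouse 3 alone, where Hspa1a was at 318, Hspa1b at 657 and Hspa8 at 653 CPM per kb. In each other vehicle mouse the copies together lay below Hspa8. Bag3 was at a small part of the level of the HSP70 genes.

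Genes with the profile most like that of Bag3 over the 8 mice were sought among all genes tested, by the root mean square difference in log2 CPM after centering each gene on its own mean. These profiles hold the difference between tRA and vehicle on which the 10 genes were chosen, so that finding members among the nearest is partly fixed by the choice and supports nothing. The 5 nearest were Dnaja1 at 0.198, the pseudogene Gm4332 at 0.235, Hsp90aa1 at 0.236, Hspe1 at 0.243 and the noncoding RNA Gm26917 at 0.244, where the median over all genes was 0.595 and a flat profile would lie at 0.572. Dnaja1, which encodes another J-domain partner of HSP70, had 664, 477, 814 and 537 CPM in vehicle mice 1 to 4 and 447, 498, 234 and 421 CPM in tRA mice 1 to 4. It was highest in vehicle mouse 3 and lowest in tRA mouse 3, as Bag3 was, and its groups overlapped. The 5 genes nearest to Hspa1a were Hspa1b at 0.174, Dnajb1 at 0.331, Hsph1 at 0.371, Hspb1 at 0.411 and Bag3 at 0.553, where the median over all genes was 1.03 and a flat profile would lie at 1.02. Of these, Hspa1b shares long stretches of sequence with Hspa1a, and Hspb1 is the only gene that was not among the 10 chosen.

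Promoter sequences were examined since most of the 10 genes were lower in the same mice and HSF1 is known to bind inverted GAA units. RefSeq windows on GRCm38.p6, from 250 bases before to 50 bases after the start of transcription, were found for 6 of the 10 genes, and Hspa8, Hsp90aa1, Hsp90ab1 and Hsf1 have no entry. The paired motifs GAANNTTC and TTCNNGAA, each of which reads the same on both strands and which can overlap each other, were held by 7.86% and 8.52% of all 32851 windows, and 15.1% held at least 1 of them. Of the 6 genes with a window, 5 held a pair, and Dnajb1 held none in its 2 windows. A run of 3 alternating units was held by 0.603% of all windows and by those of Hsph1 and Hspe1. A match describes the letters only and is not evidence that HSF1 bound there. The stretches that follow, 5′ to 3′ on the strand of the gene, show paired motifs, in capitals, in the genes with the largest differences and in Hspe1. The stretch of Hspa1a is chr17:34972223-34972290 (minus strand), that of Hspa1b chr17:34959305-34959372 (minus strand), that of Hsph1 chr5:149636337-149636399 (minus strand), that of Hspe1 chr1:55088029-55088106 (plus strand) and that of Bag3 chr7:128523618-128523632 (plus strand).
Hspa1a: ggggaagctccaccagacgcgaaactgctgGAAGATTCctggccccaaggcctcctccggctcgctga
Hspa1b: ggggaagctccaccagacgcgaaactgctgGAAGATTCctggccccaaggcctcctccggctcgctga
Hsph1: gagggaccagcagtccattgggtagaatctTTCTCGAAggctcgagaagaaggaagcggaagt
Hspe1: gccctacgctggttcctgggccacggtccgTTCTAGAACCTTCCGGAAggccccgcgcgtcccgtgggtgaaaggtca
Bag3: gggaccaGAAGTTTC
Over these 68 bases the stretches of Hspa1a and Hspa1b were the same, with 0 differing bases, and their motif begins 104 bases before the start. The stretch of Hspe1 holds 3 overlapping pairs in its capitals, which begin 89, 84 and 79 bases before the start. In Bag3 the motif begins 42 bases after the start, and in Hsph1 the pair shown begins 33 bases before the more upstream of its 2 listed starts. Hsph1 holds 2 further pairs after both starts, which make its run of 3 units and are not in the stretch shown.

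**Figure D3:**
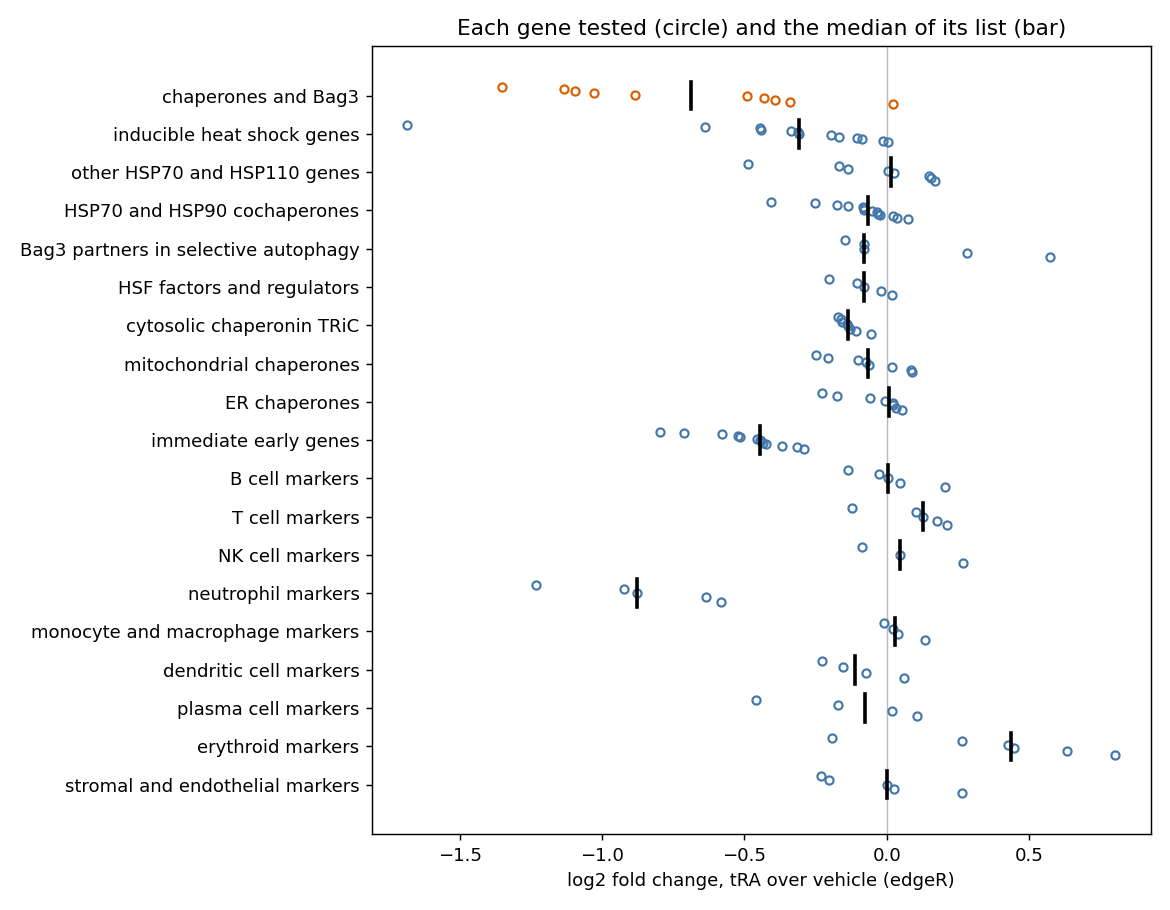
The log2 fold change, tRA over vehicle, of each of the 10 genes and of each gene tested in 18 other lists, with a bar for the median of each list. The median is -0.69 for the 10 genes, -0.31 for other inducible heat shock genes, -0.44 for immediate early genes and -0.88 for neutrophil markers, and it lies between -0.14 and 0.44 in the remaining lists.

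Other inducible heat shock genes were taken from a list of 14 genes that holds none of the 10. The list was chosen with earlier results of these data known, so its counts are a description and nothing is read from them. Of the 13 tested, 12 had a negative log2 fold change, with a median of -0.31. At an unadjusted p under 0.05 there were 4 of the 13 (30.8%), all lower with tRA, beside the 3.55% of all genes tested that were lower at this threshold, and 0 had an FDR under 0.1 by edgeR's quasi-likelihood test, DESeq2 or limma-voom. They were Hspb1 at -1.68, Dnaja1 at -0.64 and Ubb at -0.31, together with Dedd2 at -0.34, which was named after its values were seen. Dnajb4 was at -0.44 without reaching this threshold, and it ran from -0.72 to -0.18 when single mice were left out, as Ubb did from -0.39 to -0.195, with Ubb at this threshold in 5 of the 8 fits. Of the genes named from the lists by rule, 61 were tested. The log2 fold change moved by over 1.5 times or changed sign in 45 of them when single mice were left out. The exception in sign was Cryab at 0.0047, also named after its values were seen. The count at this threshold was 9 without vehicle mouse 2 and 2 without vehicle mouse 3, with 6.78% and 5.44% of all genes. Hspb1 encodes a small heat shock protein that binds unfolded clients without ATP. Hspb1 was at 3.30, 2.30, 8.35 and 3.78 CPM in vehicle mice 1 to 4 and 0.916, 2.80, 0.705 and 1.13 CPM in tRA mice 1 to 4. As for Hspa1a, vehicle mouse 3 was highest and tRA mice 1 and 3 were lowest, but tRA mouse 2 lay above vehicle mouse 2.

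Of 8 other HSP70 and HSP110 genes, 3 were lower, with a median of 0.01. The testis-enriched Hspa2, at -0.49, was the only gene at an unadjusted p under 0.05. This was 12.5% of the list, beside 6.49% of all genes tested in both directions and 3.55% lower with tRA, and nothing is read from it. When single mice were left out, Hspa2 ran from -0.64 to -0.31 and stayed at this threshold in 3 of the 8 fits. The most abundant of these genes, Hspa4, was at 0.02. Of 14 cochaperones of HSP70 and HSP90, 11 were lower, with a median of -0.07. Bag1, at -0.25, was the only cochaperone at that threshold, or 7.14% of the list. Of all genes tested, 6.49% were at it in both directions and 3.55% were lower with tRA, and nothing is read from this 1 gene. Bag2 was at -0.40, Ptges3 at -0.18 and the most abundant cochaperone, Dnajc7, at -0.03. When single mice were left out, Bag1 stayed at that threshold in 4 of the 8 fits, Bag2 ran from -0.48 to -0.23 and Ptges3 from -0.29 to -0.03. The autophagy partners of Bag3 had a median of -0.08 over the 5 tested, with Sqstm1, the p62 receptor, at -0.15 (-0.23 to -0.09 when single mice were left out), Hspb6 at 0.28 (0.16 to 0.48) and Synpo2 at 0.57 (0.21 to 0.78), and 0 of them were at an unadjusted p under 0.05. Hspb8, the best known partner of Bag3, drew 7 counts over all 8 mice and was not tested. Among 5 HSF factors and regulators the median was -0.08 and 0 were at that threshold, with Hsf4 at -0.20, Hsbp1 at -0.10 and Vcp at -0.08, which ran from -0.30 to -0.06, -0.15 to -0.03 and -0.12 to -0.05 when single mice were left out.

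The cytosolic chaperonin TRiC, which folds actin and tubulin, had all 8 subunit genes lower, with a narrow range from -0.17 to -0.06 and 0 of them at an unadjusted p under 0.05. In the mitochondrial list, the HSP60 gene Hspd1, the partner of Hspe1, was at -0.25 (-0.355 to -0.146 when single mice were left out). The protease gene Clpp, at -0.21, was the only one of the 8 genes at that threshold (12.5%, beside 6.49% of all genes tested in both directions and 3.55% lower with tRA). Clpp stayed there in 2 of the 8 fits with a single mouse left out, and nothing is read from this count. The median of this list was -0.07. Hspd1 was at 232, 173, 274 and 223 CPM in vehicle mice 1 to 4 and 201, 218, 166 and 176 CPM in tRA mice 1 to 4. Like Hspe1, it was highest in vehicle mouse 3 and lowest in tRA mouse 3, and its groups overlapped. The chaperones of the endoplasmic reticulum had a median of 0.01 over 8 genes with 0 at that threshold, with the most abundant, Hspa5, at -0.23 (-0.315 to -0.139 when single mice were left out).

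Immediate early genes, which cells switch on within minutes of stimulation, had a negative log2 fold change in all 13 cases, with a median of -0.44, although tRA mouse 1 was the highest of the 8 mice for 8 of them. At an unadjusted p under 0.05 there were 3 of the 13, Egr1 at -0.80, Fosb at -0.71 and Jun at -0.58. By edgeR's quasi-likelihood test or limma-voom, 0 had an FDR under 0.1. DESeq2 called 2 at this FDR, Jun and Egr1, beside 27 of 13625 genes in all (0.198%). The count at an unadjusted p under 0.05 was 5 with DESeq2 and with limma-voom, 7 with no filter on low counts and 11 without tRA mouse 1, while the share of all genes at this threshold was 4.18%, 6.75%, 5.34% and 12.6% in these settings, against 6.49% in the main fit. Jun and Egr1 are in the study's list, so their direction is not independent evidence. Summed over the 13 genes, of which Fosb had the highest mean CPM with vehicle and Fos with tRA and 0 were without counts, the level was 19305, 18647, 17646 and 16189 CPM in vehicle mice 1 to 4 and 18878, 14683, 7183 and 8923 CPM in tRA mice 1 to 4. The low mice were tRA mice 3 and 4, and vehicle mouse 3 was not the highest. Of the tRA mice, mice 3 and 4 were also the lowest for Bag3, Hspa8, Hsp90aa1 and Hsp90ab1. Mice 3 and 1 were the lowest tRA mice for Hspa1a, Hspa1b, Dnajb1, Hsph1 and Hspe1. The part of these genes in the differences of the chaperones was not tested.

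The labelled cell source was checked against marker genes. The B cell markers, of which Cd79a was the most abundant, summed to 4228 to 5358 CPM over the vehicle mice and to 4612 to 4907 CPM over the tRA mice. T cell markers summed to 704 to 873 and 835 to 893 CPM in the same order, and Alb, Ins2 and Myh6, genes of liver, pancreas and heart, to at most 1.40 CPM in any mouse. Lymphocyte RNA was thus abundant in every library. At an unadjusted p under 0.05 there were 0 markers of B cells, T cells, NK cells, monocytes and macrophages, dendritic cells, erythroid cells and stroma, with medians of 0.0045, 0.13, 0.05, 0.03, -0.11, 0.44 and 0.0017. The erythroid markers, led by Hbb-bs, summed to 811, 1526, 2396 and 491 CPM in vehicle mice 1 to 4 and to 2286, 623, 3541 and 587 CPM in tRA mice 1 to 4, with 0 of the 6 genes at 0 counts. They were highest in the mice numbered 3 of both groups, which were at opposite ends for the chaperones. Their part in the chaperone values was not tested.

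Neutrophil markers were lower with tRA for all 5 genes, and all 5 were at an unadjusted p under 0.05, where 3.55% of all genes tested were lower at this threshold, with a median of -0.88. At an FDR under 0.1 there were 0 by edgeR's quasi-likelihood test, 1 by limma-voom (Camp) and 3 by DESeq2 and by edgeR with no filter on low counts (Camp, Ngp and Ltf in both), out of 0, 1, 27 and 6 genes in all. Camp was at -1.23, Ngp at -0.92 and Ltf at -0.88, and S100a8 and S100a9, named after their values were seen, were at -0.63 and -0.58. Ngp, Camp, Ltf and S100a9 are in the study's list and thus not independent evidence. Summed over the 5 genes, led by Ngp with vehicle and by S100a9 with tRA and with 0 genes without counts, the level was 802, 1028, 1049 and 894 CPM in vehicle mice 1 to 4 and 461, 491, 465 and 763 CPM in tRA mice 1 to 4. The groups did not overlap, and tRA mouse 4 stood above the other tRA mice. Mouse 4 was also the highest tRA mouse for 3 of the 10 chaperone genes, Hspa1a, Hspa1b and Dnajb1. For Hspa1a and Dnajb1, tRA mouse 2 was close behind it. Within the tRA group, mouse 2 was the highest for 5 of the 10. Plasma cell markers had 2 of 4 genes lower, with a median of -0.08. The most abundant of them, Jchain, was at -0.46 and the only plasma cell marker at an unadjusted p under 0.05. Their sum, with 0 genes without counts, was 707, 684, 754 and 882 CPM in vehicle mice 1 to 4 and 503, 699, 586 and 577 CPM in tRA mice 1 to 4, so that the groups overlapped through tRA mouse 2. The part of either cell type in the chaperone differences was not tested.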

How the data were processed

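Total splenocytes of 4 tRA mice and 4 vehicle mice were sequenced, and the authors deposited raw counts per gene without normalization. The study's methods name ea-utils, Btrim, Bowtie2, Tophat2 and HTSeq, whereas the submitters' processing notes name STAR 2.5.2b, featureCounts 1.5.1, DESeq2 1.26.0 and GRCm38, and which of them made the counts is not known. The methods name the TruSeq v2 protocol, which in its standard form does not keep strand, and whether the counting used strand is not given in the sources used here. The deposited DESeq2 comparison holds the authors' fold changes and p-values and was not used.

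Of 51826 gene identifiers, 51633 matched GENCODE M21, which gave symbols, positions and exon lengths. Counts were tested by edgeR 4.0.16 in R 4.3.3 (filterByExpr with a minimum of 10 counts, TMM, quasi-likelihood test, Benjamini-Hochberg adjustment over all 16484 genes tested), after the fits were tested on simulated data. DESeq2 1.42.0 and limma 3.58.1 (limma-voom) were alternatives, besides RLE, library size alone, other filters, a replicate block, summed copies and each mouse left out. CPM were computed from the deposited counts with TMM, and 0.5 CPM was added before log2 for spreads and profiles. Python 3.11.15 with matplotlib 3.10.9 drew the plots. Within groups, every pair of mice differed by more than sampling noise (chi-square per degree of freedom from 12.9 to 65.4).

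The members and the 19 gene lists (127 genes) were chosen with earlier results of these data known. The genes named by rule are the 10 members and the 5 nearest profiles to Bag3 and to Hspa1a. In each list, they are any gene with an FDR under 0.1 and the most abundant gene. The 3 genes of each list with the largest fold change in either direction are named as well. Dedd2, Cryab, S100a8 and S100a9 were named besides, after their values were seen, and are not among the 61 genes followed with single mice left out. A gene of the inducible heat shock list is not reported here, and the values of that list were computed without it.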

Additional observations from a re-analysis of the deposited data

Results flagged for a closer look

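Of 56 groups of 4 mice examined, 4 held a mouse far from the other 3, where chance gives 2.8. These groups come from the same mice and are not independent, so nothing is read from the count. Hspa1a was at 942.1 CPM in vehicle mouse 3, where the other vehicle mice ran from 317 to 412. Hsp90aa1 was at 1617 CPM in vehicle mouse 3, where the others ran from 1068 to 1122. The summed level of HSF factors and regulators was 287.1 CPM in tRA mouse 1, where the other tRA mice ran from 254 to 258. The summed level of neutrophil markers was 762.6 CPM in tRA mouse 4, where the others ran from 461 to 491. The causes were not tested.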

How the results depend on the processing

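The number of genes with an FDR under 0.1, 0 by edgeR with 1070 at an unadjusted p under 0.05, came to 27 by DESeq2, 6 when low counts were not filtered and 1 by limma-voom, and ran from 0 to 3 when single mice were left out, with 3 when tRA mouse 4 was. Among the 10 members it was 1 with DESeq2 (Bag3) and 0 in all other settings. Members with an unadjusted p under 0.05, 8 by edgeR, were 3 to 9 with each mouse left out and 3 without the mice numbered 3 of both groups (chosen after seeing the data). The share of all genes at this threshold was 6.49% by edgeR, 3.93% to 12.6% with each mouse left out and 4.99% without both mice numbered 3. The members' median log2 fold change ran from -0.87 to -0.48 with each mouse left out, and was -0.34 without both mice numbered 3, -0.49 with Hspa1a and Hspa1b summed and -0.49 without Bag3. The median of the 10 in the main fit lies in a gap between Bag3 at -0.88 and Hspe1 at -0.49. Both the summing and the loss of Bag3 leave Hspe1 as the middle gene. Inducible heat shock genes with an unadjusted p under 0.05, 4 by edgeR, were 2 to 9 with each mouse left out. Immediate early genes, 3 by edgeR, were 5 by DESeq2 and 5 by limma-voom, 7 when low counts were not filtered and 3 to 11 when single mice were left out, where the share of all genes at this threshold ran from 3.93% to 12.6%. The causes were not tested.

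Mice are numbered 1 to 4 in either group by the labels. Mice of equal number correlated in their deviations at 0.157, -0.0229, -0.014 and 0.259, and the numbers were not taken as a pairing. In the fit with a replicate block, 0 genes had an FDR under 0.1. An unadjusted p under 0.05 was seen for 1200 genes (7.28%), 6 of them members and 8 of them immediate early genes.

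The 9 members lower with tRA were lower in every setting run. Hsf1 turned to -0.0031 without both mice numbered 3. Among list genes, 33 values changed sign, 12, all lower with tRA, came to an FDR under 0.1 and 990 kept their sign and did not. With each mouse left out, the log2 fold change ran from -0.011 to 0.047 for Hspa4, -0.35 to 0.11 for Hspa1l, -0.11 to 0.090 for Dnajc7, -0.44 to 0.060 for Dnajb9, -0.023 to 0.12 for Cd79b, -0.16 to 0.071 for Klrb1c, -0.071 to 0.23 for Klrk1, -0.040 to 0.26 for Lyz2, -0.047 to 0.16 for Adgre1, -0.088 to 0.17 for Csf1r, -0.16 to 0.068 for Itgax, -0.16 to 0.93 for Hbb-bs, -0.12 to 0.96 for Alas2, -0.012 to 0.011 for Pecam1 and -0.15 to 0.58 for Col1a2. Without both mice numbered 3 it was 0.073 for Dnajc7, 0.069 for Dnajb9, 0.021 for Klrb1c, -0.049 for Adgre1, -0.11 for Csf1r and -0.0036 for Pecam1, which was -0.00054 when 10 counts were required in every sample. Depth limits genes such as Hspb8, with 7 counts in all.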
